A study of Mus musculus with 130 samples.

Results

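The 20 mouse strains with the highest liver level of Lcn2 mRNA were compared with the 20 strains with the lowest, out of a panel of 115 mice, nearly all of different strains, fed a high-iron diet. Members were chosen by the TPM of Lcn2 alone (transcripts per 1000000, a level scaled for gene length and library size), and all other genes were then compared in the counts of the same 40 libraries. The study asked how inbred and recombinant inbred strains differ in their response to dietary iron overload. Livers came from male mice that ate chow for 4 weeks and then a diet with 2% carbonyl iron (20000 ppm) for 6 weeks, and both groups shared this treatment. Each strain was represented by 1 mouse, so strain and individual mouse cannot be told apart. The 2 libraries of the 115 left out of the ranking, which left 20, 73 and 20 strains, were a second 129X1/SvJ mouse and BXD65/RwwJ, a library with low Y-linked genes. A separate series of 15 C57BL/6J males, 3 per diet, was processed apart from the panel and enters below only where named.

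The high group held 9 BXD strains, 2 AXB or BXA strains, 1 BXH strain and 8 other inbred strains. In descending order of Lcn2 these were BXD48/RwwJ, NZB/BlNJ, BXD27/TyJ, BTBR T<+> tf/J, BXH2/TyJ, NON/ShiLtJ, BXD36/TyJ, BXD24/TyJ-Cep290<rd16>/J, I/LnJ, BXD42/TyJ, LG/J, FVB/NJ, BXD32/TyJ, BXD28/TyJ, AXB5/PgnJ, BXA2/PgnJ, KK/HlJ, BXD33/TyJ, SJL/J and BXD40/TyJ. The low group held 6 BXD, 6 AXB or BXA, 3 BXH, 1 CXB and 4 other inbred strains. From the highest to the lowest these were BXD39/TyJ, BXD62/RwwJ, C57BLKS/J, BXH10/TyJ, BXA8/PgnJ, BXA1/PgnJ, BXD48a/RwwJ, BALB/cByJ, BXA4/PgnJ, AXB19/PgnJ, CXB7/ByJ, BXD70/RwwJ, BXA26/PgnJ, CBA/J, AXB4/PgnJ, SWR/J, BXH8/TyJ, BXD15/TyJ, BXD75/RwwJ and BXH14/TyJ. Recombinant inbred strains descend from a cross of a pair of inbred parents: BXD from C57BL/6J and DBA/2J, AXB and BXA from A/J and C57BL/6J, BXH from C57BL/6J and C3H/HeJ, and CXB from BALB/cByJ and C57BL/6J.

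Lcn2 encodes lipocalin-2, a small secreted protein that binds bacterial siderophores, the iron chelators that bacteria release, and so keeps iron from them. Hepatocytes make it as an acute phase protein under interleukin-6 and interleukin-1, and neutrophils store it in their granules. The acute phase response is the change in liver secretion that follows infection or injury: serum amyloid A, haptoglobin, hemopexin and fibrinogen are made in larger amounts, and transthyretin and other negative acute phase proteins in smaller amounts.

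Lcn2 in the high group ranged from 429.9 TPM in BXD40/TyJ to 4031 TPM in BXD48/RwwJ, with a median of 629.6. In the low group it ranged from 10.03 TPM in BXH14/TyJ to 30.2 TPM in BXD39/TyJ, with a median of 21.8. The 73 strains between them spanned 33.1 to 399.4 TPM, with a median of 78.4. These values chose the groups and are given without a test. The ranking had no gap at either boundary: BXD85/RwwJ, just outside the high group, stood at 399.4 TPM, and CXB2/ByJ, just outside the low group, at 33.1 TPM. The 6 highest strains lay above the rest of the high group, NZB/BlNJ at 2178, BXD27/TyJ at 1612, BTBR T<+> tf/J at 1282, BXH2/TyJ at 1202 and NON/ShiLtJ at 1113 beside BXD48/RwwJ. Ordered by TPM within its own library, Lcn2 lay at places 30 to 178 among all genes in the high strains, at places 161 to 2471 in the strains between, and at places 2261 to 5716 in the low strains. In the high group it was thus among the most abundant liver transcripts. The counts behind these values were 3188 to 42272 estimated reads in the high group and 94 to 277 in the low group.

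**Figure D1:**
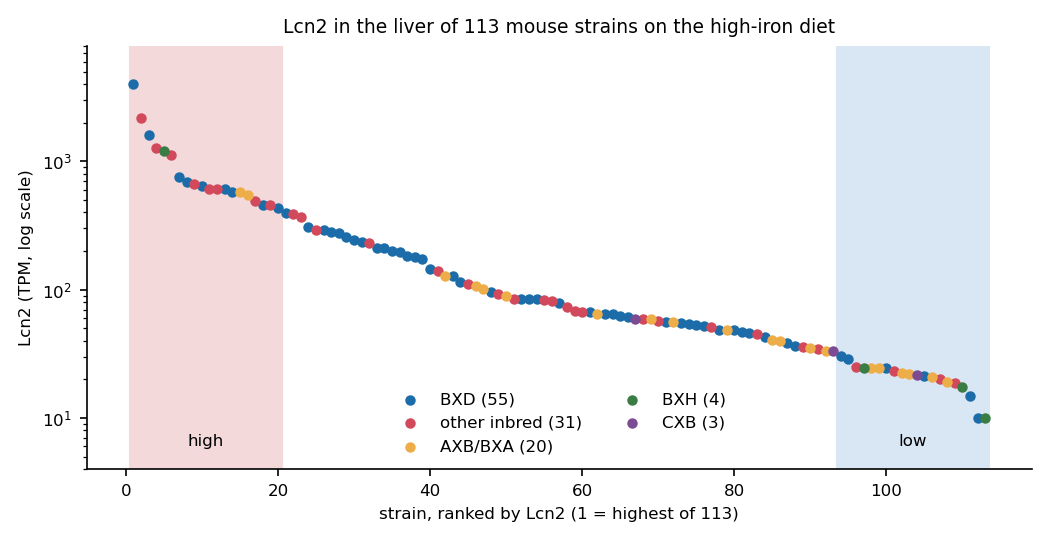
Lcn2 TPM on a log axis for each ranked strain in order of rank, coloured by strain family. The 20 high strains lie between 429.9 and 4031 TPM and the 20 low strains between 10.03 and 30.2 TPM, with no gap at either boundary.

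Strains of 1 family did not keep together. Of the 55 BXD strains, 9 were in the high group and 6 in the low group, and 10 of them exceeded both parents, C57BL/6J at 365.7 TPM and DBA/2J at 83.2 TPM. Another 24 BXD strains were below both parents. Of the 20 AXB and BXA strains, 14 were below both A/J (72.8 TPM) and C57BL/6J. BXD48/RwwJ had the highest level of the panel, while BXD48a/RwwJ, a line of closely related name, was in the low group at 24.4 TPM. BALB/cByJ was also in the low group, at 23.4 TPM, and the substrain BALB/cJ was outside it at 111.7 TPM. Of the 4 BXH strains, BXH2/TyJ stood at 1202 TPM and the other 3 at 24.6, 17.5 and 10.03 TPM. The 2 mice of 129X1/SvJ gave 59.3 and 39.8 TPM. In the separate diet series, 3 C57BL/6J mice on the 2% iron diet gave 149.7, 34.3 and 74.6 TPM, so mice of 1 strain on 1 diet differed by several fold, while the panel's C57BL/6J mouse stood at 365.7 TPM in a table processed separately.

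The 40 libraries held 9864422 to 15419215 estimated counts in the high group and 10383984 to 14318437 in the low group, and the totals did not pass a permutation test (p = 0.4455, two-sided). More genes were detected in the high group, 17763 to 18768 (median 18113.5), than in the low group, 17301 to 18269 (median 17767.5), with a permutation p of 0.00024, and the part of this in the results below was not tested. The tissue label was checked with 8 hepatocyte genes. Of these, 0 were called higher and 2 lower in the high group (Ttr, given below, among the 2), against 22% and 18.3% of all genes tested. Their median log2 change was -0.09. Alb, which encodes albumin, ranged from 41970 to 122600 CPM (counts per 1000000) in the high group and from 62630 to 111300 CPM in the low group (log2 change -0.05, SE 0.10, adjusted p 0.705).

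Of 13201 genes tested, 5322 (40.3%) differed between the groups at an adjusted p under 0.05, by edgeR's quasi-likelihood test with Benjamini-Hochberg adjustment over all genes tested. Of these, 2903 (22%) were higher in the high-Lcn2 strains and 2419 (18.3%) were lower, and the median log2 change of all genes tested was 0.02. With limma on log2(TPM + 1), 4173 genes were called, 70.3% of them higher, against 54.5% of the calls above. Changes over 2-fold numbered 446 higher and 128 lower. Because the groups were chosen on Lcn2 in the same libraries, a p-value here measures association with Lcn2 over these strains and not the effect of a treatment. Fold changes are given as log2, high against low, with the SE of the fit. Each count of called genes in a list below stands against the shares of all genes tested, 22% higher and 18.3% lower. A gene that would fail the filter on low counts in the low strains alone, or in the high strains alone, may owe its place in the test to the other group, so its call supports nothing about its list. Such genes are counted beside the lists, some of them failing in either group alone. Since these are whole pieces of liver, more cells of a type and more RNA per cell cannot be told apart.

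Of 22 acute phase genes, 19 were higher in the high-Lcn2 strains and 0 were lower (1 of the 19, Orm3, would fail the filter in the low strains alone), against 22% of all genes tested that were higher, and the median log2 change of the list was 1.24 against 0.02 for all genes. Saa1 and Saa2 encode the acute phase serum amyloid A proteins, which travel on high-density lipoprotein. Saa1 ranged from 7.66 to 4034 CPM in the high group (median 110.9) and from 4.94 to 85.9 CPM in the low group (median 12.2). The groups overlapped: 11 of the 20 high strains exceeded all low strains, BXD48/RwwJ stood far above the rest and LG/J was among the low values. The log2 change of Saa1 was 4.75 (SE 0.63, adjusted p 9.915e-07), and without BXD48/RwwJ it was 4.02. Saa2, with a median of 70.2 CPM in the high group and 6.17 CPM in the low group, changed by 5.62 (SE 0.77, adjusted p 1.525e-06), and by 4.85 without BXD48/RwwJ. The pair are near-identical copies, so the split of reads between them is uncertain.

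Orm2 encodes orosomucoid 2, a plasma carrier protein of the acute phase. It ranged from 11.6 CPM in SJL/J to 558.4 CPM in BXD48/RwwJ (median 41.9) in the high group, and from 1.32 to 11.9 CPM (median 3.78) in the low group. The highest low strain, BXD39/TyJ, was above SJL/J alone, and the log2 change was 4.54 (SE 0.46, adjusted p 4.782e-09). Reads of Orm1, Orm2 and Orm3 may be shared between these paralogs. Haptoglobin and hemopexin bind free hemoglobin and free heme in plasma. Hp ranged from 2215 to 20460 CPM (median 5158) in the high group and from 1069 to 2505 CPM (median 1778) in the low group, and KK/HlJ was the 1 high strain inside the range of the low group. Its log2 change was 1.73 (SE 0.18, adjusted p 4.377e-09). Hpx was between 4530 and 17410 CPM in every high strain and between 2226 and 3938 CPM in every low strain, so the groups did not overlap. Its log2 change was 1.29 (SE 0.12, adjusted p 1.837e-10). Over all genes tested, 2 genes (0.0152%) were higher without overlap, Hpx and Prtn3.

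The promoters of Lcn2, Saa1, Saa2, Orm2 and Hpx are printed to show the C/EBP motif, TTNNGNAA, which these regions share in different numbers. Hp has no entry in the promoter table used here. C/EBP proteins are transcription factors of the acute phase. The sequences are RefSeq's on GRCm38.p6 and begin 250 bases before RefSeq's annotated start. Each was cut at the first base annotated as untranslated, and capitals mark matches on either strand. The sequences run 5′ to 3′ along the gene, at chr2:32387798-32387989 (minus strand) for Lcn2, chr7:46742981-46743230 (minus) for Saa1, chr7:46751583-46751789 (plus) for Saa2, chr4:63362199-63362448 (plus) for Orm2 and chr7:105600138-105600366 (minus) for Hpx. The Lcn2 window lies inside the gene span used in the closing section, 32384633 to 32388252. It thus precedes RefSeq's start but not the 5′ end of that span.
Lcn2: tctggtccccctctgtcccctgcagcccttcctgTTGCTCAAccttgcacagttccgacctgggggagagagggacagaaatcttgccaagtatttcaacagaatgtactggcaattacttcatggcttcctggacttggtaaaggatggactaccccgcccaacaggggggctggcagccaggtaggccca
Saa1: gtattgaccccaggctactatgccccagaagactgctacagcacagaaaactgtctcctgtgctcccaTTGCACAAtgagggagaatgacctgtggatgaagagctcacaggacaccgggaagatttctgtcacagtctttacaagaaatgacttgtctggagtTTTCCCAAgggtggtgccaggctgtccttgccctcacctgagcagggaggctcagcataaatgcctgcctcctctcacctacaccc
Saa2: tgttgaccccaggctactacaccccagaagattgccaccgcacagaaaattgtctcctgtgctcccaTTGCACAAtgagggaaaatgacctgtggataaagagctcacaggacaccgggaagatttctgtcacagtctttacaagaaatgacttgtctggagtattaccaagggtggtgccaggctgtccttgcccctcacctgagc
Orm2: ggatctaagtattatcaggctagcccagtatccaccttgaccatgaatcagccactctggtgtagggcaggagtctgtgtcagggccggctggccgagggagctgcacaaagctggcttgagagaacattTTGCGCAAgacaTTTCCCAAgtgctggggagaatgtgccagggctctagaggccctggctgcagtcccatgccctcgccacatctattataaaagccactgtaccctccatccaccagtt
Hpx: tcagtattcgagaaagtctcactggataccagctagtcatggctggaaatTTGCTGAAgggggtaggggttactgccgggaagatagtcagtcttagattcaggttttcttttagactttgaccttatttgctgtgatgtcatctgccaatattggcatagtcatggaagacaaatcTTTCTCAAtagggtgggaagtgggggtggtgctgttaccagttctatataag
Of the 19 acute phase genes that were higher, 15 had a promoter in the table, with 16 promoter entries between them, and TTNNGNAA, searched over the 250 bases before the start, occurred in 12 of these 16 and in 36.8% of all 32851 promoters. The STAT3 motif TTCNNNGAA, searched on both strands, occurred in 4 of the 16, those of Apcs, Fga, Fgb and Itih4, and in 7.02% of all promoters. The NF-kB motif occurred in 0 of the 16 and in 7.25% of all promoters. These matches describe the letters of the windows and name no bound site.

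Lbp encodes lipopolysaccharide-binding protein, which hands bacterial endotoxin to its receptor. It ranged from 133.2 to 836.6 CPM (median 310.7) in the high group and from 76.4 to 204.3 CPM (median 104.2) in the low group, a log2 change of 1.61 (SE 0.17, adjusted p 2.15e-08). Cp encodes ceruloplasmin, the copper-bearing oxidase that loads iron onto transferrin, and Itih3 a heavy chain of the inter-alpha-trypsin inhibitors. Cp changed by 0.96 (SE 0.11) and its high and low medians were 3073 and 1734 CPM, while Itih3 changed by 1.18 (SE 0.14) with medians of 2328 and 1074 CPM. For both, 18 or more of the 20 high strains exceeded all low strains. Serpina3n, a protease inhibitor gene, ranged from 300.4 CPM in KK/HlJ to 6575 CPM in NZB/BlNJ in the high group and from 454.3 to 873.2 CPM in the low group, and changed by 1.53 (SE 0.22, adjusted p 2.292e-06). KK/HlJ was thus below every low strain for this gene.

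Of the fibrinogen chains, Fga changed by 0.85, Fgb by 0.82 and Fgg by 0.77, and 11 or 12 of the 20 high strains were above all low strains for each. Apcs, which encodes serum amyloid P, changed by 1.37, and C3, the central complement component, by 0.82. The acute phase genes outside the call were Saa4, Crp and Il1rn. Saa4, the constitutive serum amyloid A gene, had medians of 116.3 CPM in the high group and 132.1 CPM in the low group (log2 change 0.17, SE 0.29, adjusted p 0.671). Crp, a main acute phase protein in humans that responds little in mice, had medians of 250.6 and 231.5 CPM (0.09, SE 0.18, adjusted p 0.715). Il1rn, the interleukin-1 receptor antagonist, gave 0.80 (SE 0.34, adjusted p 0.0604), and 0.11 without BXD48/RwwJ, where it stood at 83.1 CPM.

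**Figure D2:**
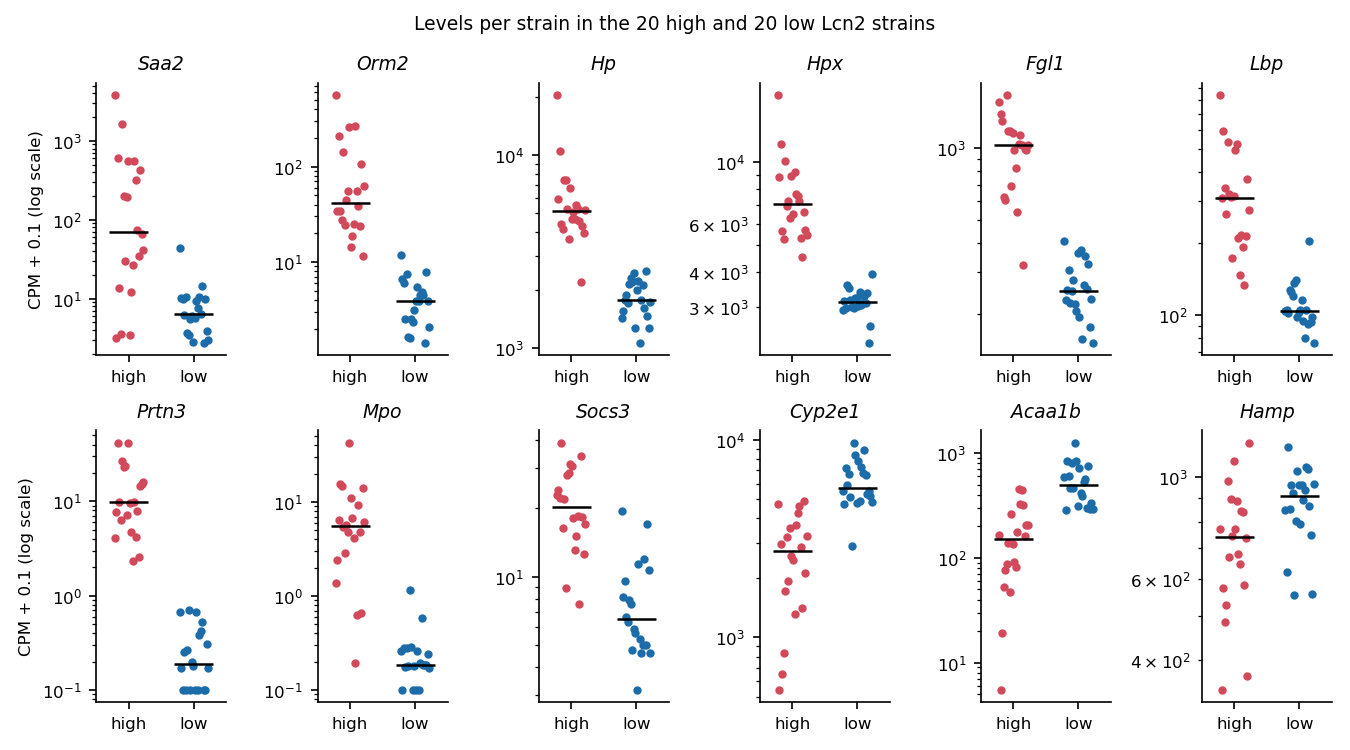
CPM (plus 0.1, log axis) of 12 genes in each of the 20 low and 20 high strains, with a bar at each group's median. Hpx and Prtn3 do not overlap between the groups, Saa2 spreads over the range of the low group and far above it, and Hamp overlaps throughout.

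Of 10 negative acute phase genes, 4 were lower and 2 were higher, against 18.3% and 22% of all genes tested, with a median of -0.14. Ttr, which encodes the thyroxine and retinol carrier transthyretin, ranged from 1524 to 3323 CPM (median 2621) in the high group and from 3094 to 4564 CPM (median 4080) in the low group, a log2 change of -0.61 (SE 0.09, adjusted p 3.221e-06). Serpina6, the corticosteroid-binding globulin gene, had medians of 44.01 CPM in the high group and 268.2 CPM in the low group, and 16 of 20 high strains were below all low strains (-2.31, SE 0.46, adjusted p 0.000157). In BXH2/TyJ it stood at 0.427 CPM. Trf, which encodes the iron carrier transferrin and is counted in this list, was higher, with 14210 to 42280 CPM in the high group and 9176 to 19420 CPM in the low group (1.02, SE 0.12, adjusted p 7.149e-08).

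Interleukin-6 acts on hepatocytes through gp130 (Il6st), JAK kinases and STAT3, and SOCS3 ends the signal. Of 14 genes of this pathway, 8 were higher and 2 were lower. Fgl1, a hepatocyte-secreted fibrinogen-like protein gene that is induced by interleukin-6, ranged from 320.9 to 1662 CPM (median 1025) in the high group and from 151.6 to 407.1 CPM (median 251.2) in the low group. Of the 20 high strains, 19 exceeded all low strains, and the log2 change was 1.95 (SE 0.15, adjusted p 4.619e-12). Stat3 itself had medians of 196.9 and 121.8 CPM (0.64, SE 0.08, adjusted p 5.163e-07), and Socs3 of 20.1 and 6.38 CPM (1.43, SE 0.20, adjusted p 2.585e-06). Cebpd, a C/EBP factor of the acute phase, changed by 1.06 (SE 0.22, adjusted p 0.000199). Cebpb gave 0.17 (adjusted p 0.333). Of the receptor chains, Il6st (0.37) and Osmr (1.11) were higher and Lifr (-0.58) was lower.

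Of 16 genes of the NF-kB pathway, 11 were higher and 0 were lower, with a median of 0.56. Nfkbiz, which encodes a nuclear partner of NF-kB that is needed for Lcn2 induction in several cell types, ranged from 8.77 to 98.1 CPM in the high group and from 6.32 to 17.9 CPM in the low group, and changed by 1.32 (SE 0.19, adjusted p 3.203e-06). Icam1, an endothelial and leukocyte adhesion molecule, had medians of 23.6 and 11.5 CPM (1.15, SE 0.14, adjusted p 2.052e-07). Cd14, the endotoxin co-receptor, changed by 1.80 (SE 0.26) and Tnfaip3, which encodes the inhibitor A20, by 1.14 (SE 0.19). For Cd14, 17 of 20 high strains exceeded all low strains.

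Of 13 cytokine genes, 5 were expressed enough to be tested, and the others were near the limit of detection. Il17a, Il22 and Csf3 had 0 counts in all 40 libraries, and Il6, Tnf and Osm were too low to be tested. Il6 had medians of 0.109 CPM in the high group and 0.0699 CPM in the low group, and was at 0 in 4 and 9 strains. Osm was at 0 in 4 high strains and 14 low strains. Of 5 cytokine genes that were tested, 4 were higher, among them Il1b (0.998, SE 0.30, adjusted p 0.00749), with medians of 2.04 and 0.912 CPM. Il1b would fail the filter in the low strains alone, and was not called with 10 (adjusted p 0.124) or 30 (0.111) strains at each end. Among 12 receptors, 7 were higher and 2 were lower. Il1r1, the interleukin-1 receptor, had medians of 110.5 CPM in the high group and 37.5 CPM in the low group (1.40, SE 0.24, adjusted p 3.05e-05), and its partner Il1rap was lower (-0.74, SE 0.15, adjusted p 0.000142). Of 11 chemokine genes, 6 were higher, and 3 of these 6 (Cxcl13, Cxcl14 and Ccl24) would fail the filter in the low strains alone. Cxcl14 had medians of 4.50 and 0.658 CPM (3.78, SE 0.58) and Cxcl13 of 1.82 and 0.281 CPM (3.40, SE 0.60, and 2.67 without BXD27/TyJ), and Ccl6 changed by 1.49 (SE 0.23). Cxcl1, which attracts neutrophils, gave 1.196 (adjusted p 0.018), and without BXD48/RwwJ 0.74 (adjusted p 0.089).

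Of 16 neutrophil markers, 9 were expressed enough to be tested, and 8 of them were higher with 0 lower. Of these 8, 6 (S100a8, S100a9, Ngp, Ltf, Mpo and Prtn3) would fail the filter in the low strains alone. Prtn3, which encodes the granule protease proteinase 3, ranged from 2.20 CPM in BXD32/TyJ to 41.8 CPM in BXD27/TyJ (median 9.64) in the high group and from 0 to 0.599 CPM (median 0.0884) in the low group. The groups did not overlap, and the log2 change was 6.16 (SE 0.46, adjusted p 2.067e-12). Mpo, the myeloperoxidase gene, had medians of 5.49 and 0.0855 CPM (5.51, SE 0.55, adjusted p 2.747e-09), with BXD28/TyJ at 0.0945 CPM among the low values. S100a8 and S100a9 encode calprotectin, the main cytosolic protein of neutrophils. S100a8 had medians of 12.6 and 0.353 CPM (4.12, SE 0.46, adjusted p 4.968e-08) and S100a9 of 15.4 and 0.628 CPM (3.88, SE 0.44).

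Ngp and Ltf, genes of the same secondary granules that hold lipocalin-2, changed by 4.68 (SE 0.64) and 4.26 (SE 0.59). In the low group 1 strain, AXB4/PgnJ, carried a neutrophil signal, with Ngp at 7.64 CPM and S100a8 at 6.75 CPM. Without it, the log2 changes were 6.43 for Ngp, 5.70 for Ltf, 4.87 for S100a8 and 4.64 for S100a9. The remaining tested markers were Csf3r and Cxcr2, both higher, and Itgb2l, which was not called (adjusted p 0.405). The 7 markers too low to be tested were Camp, Elane, Ctsg, Retnlg, Mmp8, Ly6g and Fcnb, and Elane, the neutrophil elastase gene, was at 0 in 1 high strain and 12 low strains. The summed level of the list was 20.6 to 228.5 CPM in the high group and 6.69 to 43.8 CPM in the low group. Median Lcn2 was 629.6 TPM in the high group, beside 47.6 TPM for S100a8, 13.2 TPM for Ngp and 10.7 TPM for Ltf. The part of neutrophil RNA in the Lcn2 ranking was not tested.

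Of 15 Kupffer cell and macrophage markers, 9 were higher and 0 were lower, against 22% and 18.3% of all genes tested. Of these 9, 1 (Gpnmb) would fail the filter in the low strains alone. Marco, a scavenger receptor gene of Kupffer cells and other macrophages, ranged from 5.88 to 162.2 CPM (median 61.5) in the high group and from 1.52 to 44.01 CPM (median 13.1) in the low group (2.13, SE 0.35, adjusted p 1.75e-05). Itgam (2.06, SE 0.25), Cd9 (1.41, SE 0.17) and Lgals3 (1.27, SE 0.19) were higher too. The Kupffer cell markers Clec4f and Timd4 were not called. The summed level of the list overlapped widely, 360.5 to 1040 CPM in the high group and 248.4 to 694.95 CPM in the low group.

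Of 6 erythroid markers that were tested, 5 were higher, 3 of which (Hba-a2, Hbb-bt and Slc4a1) would fail the filter in the low strains alone, with a summed level of 38.7 to 2587 CPM in the high group and 10.3 to 541.4 CPM in the low group. Hba-a1, an alpha globin gene, had medians of 416 and 24.3 CPM (2.92, SE 0.56, adjusted p 0.000109), and Slc4a1, the band 3 anion exchanger of red cells, changed by 5.71 (SE 0.77), and by 6.72 without AXB4/PgnJ. Globin copies share reads, so their split is uncertain. Of 18 stellate cell and fibrosis genes, 6 (Vim and Col4a1 among the 6) were higher, against 22% of all genes tested. Col3a1, the main fibrillar collagen of fibrosis beside Col1a1, was not called, and neither was Col1a1. All 5 tested lymphocyte markers were outside the call, as were 6 of 7 cholangiocyte markers, Sox9 (1.004) being higher. Of 10 endothelial markers, 2 were higher, near the share of 22% over all genes tested. Adipoq and Lep of adipocytes and Pnlip, Cpa1 and Prss2 of the exocrine pancreas were at or near 0 in both groups, while the fatty acid carrier gene Fabp4 was higher (2.18, SE 0.29). The part of these cell types in the results was not tested.

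Lipocalin-2 enters cells through the receptor encoded by Slc22a17 or through megalin (Lrp2), binds the mammalian siderophore that BDH2 makes, and forms a complex with the protease MMP9. Mmp9 ranged from 0.378 to 8.28 CPM in the high group and from 0 to 0.976 CPM in the low group, a log2 change of 3.09 (SE 0.38, adjusted p 2.16e-07), and 17 of 20 high strains exceeded all low strains. Mmp9 would fail the filter in the low strains alone. Bdh2 was lower, with medians of 1.65 and 3.35 CPM (-0.95, SE 0.22, adjusted p 0.00089). Slc22a17, at medians of 1.07 and 1.18 CPM, was not called (adjusted p 0.634), and Lrp2 was too low to be tested.

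All strains ate the same iron-rich diet, and of 29 genes of iron handling and hepcidin control, 8 were higher and 5 were lower, with a median of 0.01. These counts were near the shares of all genes tested, 22% higher and 18.3% lower, so the genes named below are single genes and not a result about the list. In BXD strains alone, 0 of the 29 were called, beside 1.17% of all genes tested there. Hamp, which encodes the iron hormone hepcidin, ranged from 344.9 to 1187 CPM (median 741.7) in the high group and from 554.3 to 1163 CPM (median 907.4) in the low group, and was not called (-0.26, SE 0.12, adjusted p 0.0753). In strains other than BXD it was called lower (-0.50, adjusted p 0.00875), and in BXD strains alone it stood at 0.17 (adjusted p 0.649). Bmp6, the endothelial signal that drives hepcidin, had medians of 24.4 and 24.9 CPM and was not called (adjusted p 0.566). Tfrc, Slc11a2 and Slc39a14 were higher and Slc39a8, the ZIP8 importer, was lower (-0.29, adjusted p 0.01494, and 0.167 with limma). Tfrc, the transferrin receptor, had medians of 32.5 and 9.65 CPM (1.92, SE 0.32, adjusted p 1.727e-05). Slc11a2, the divalent metal transporter DMT1, had medians of 34.9 and 15.4 CPM (1.24, SE 0.18, adjusted p 3.12e-06). Slc39a14, the zinc and iron importer ZIP14, changed by 0.56 (SE 0.12, adjusted p 0.000588), and Steap4, a metal reductase, by 1.198 (SE 0.24), while its relative Steap3 was not called (adjusted p 0.18). Hmox1, which breaks down heme, changed by 1.36 (SE 0.19, adjusted p 2.22e-06), with medians of 75.4 and 33.9 CPM.

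Ireb2, which encodes the iron-responsive regulator IRP2, was lower (-0.48, SE 0.07, adjusted p 2.028e-06), with 15 of 20 high strains below all low strains, and so was Tmprss6, the protease that dampens hepcidin signalling (-0.39, SE 0.11). Of 5 metallothionein and zinc genes, 4 were higher. Mt1 ranged from 21.8 to 1869 CPM (median 739.5) in the high group and from 46.1 to 436.1 CPM (median 198.9) in the low group (1.98, SE 0.31, adjusted p 8.64e-06), and Mt2 changed by 2.23 (SE 0.38). Metallothioneins bind zinc and copper and are also acute phase genes of liver.

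Of 21 cytochrome P450 and bile acid genes, 17 were lower and 0 were higher, against 18.3% of all genes tested that were lower, with a median of -0.88. Cyp2e1, which oxidises ethanol and other small molecules, ranged from 541.1 to 4881 CPM (median 2730) in the high group and from 2909 to 9680 CPM (median 5726) in the low group (-1.21, SE 0.21, adjusted p 2.961e-05). Cyp1a2 had medians of 53.8 and 275.3 CPM (-2.25, SE 0.43, adjusted p 0.000113). Cyp7a1, the rate-limiting enzyme of bile acid synthesis, had medians of 50.8 and 170.7 CPM (-1.36, SE 0.40, adjusted p 0.00718), and the bile acid importer gene Slco1b2 changed by -0.95 (SE 0.24). The groups overlapped for all of these, with 6 to 13 of 20 high strains below all low strains. The nuclear receptor gene Nr1h4 (FXR) was not called (adjusted p 0.0997), and was lower in strains other than BXD (-0.48, adjusted p 0.005). Within the Cyp2c, Cyp3a and Cyp4a families, near-identical copies may share reads.

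Of 14 fatty acid oxidation genes, 12 were lower and 0 were higher. Acaa1b, a peroxisomal thiolase gene, ranged from 5.36 to 452.4 CPM in the high group and from 289.1 to 1262 CPM in the low group, with 16 of 20 high strains below all low strains (-1.68, SE 0.32, adjusted p 0.00011). Ehhadh (-0.995, SE 0.18), Cpt1a (-0.44, SE 0.13) and their regulator Ppara (-0.49, SE 0.14) were lower. Of 10 lipogenic genes, 8 were lower, among them Srebf1 (-0.70, SE 0.16), Elovl6 (-0.94, SE 0.25) and Fasn (-1.01, SE 0.28), which encode the transcription factor SREBP1, a fatty acid elongase and fatty acid synthase. Of 20 cholesterol synthesis genes, 2 were lower and 0 were higher, against 18.3% and 22% of all genes tested. Of 15 male-biased genes that depend on growth hormone and STAT5, 10 were lower, with a median of -2.61, and 8 of these 10 would fail the filter in the high strains alone, Hsd3b5, Elovl3 and Mup7 among them. Hsd3b5, a steroid dehydrogenase gene, had medians of 0.261 and 4.99 CPM (-5.11, SE 0.81, adjusted p 1.04e-05), and Elovl3 of 1.49 and 10.6 CPM (-2.93, SE 0.57). Mup7, one of the major urinary protein genes, was at medians of 0.766 and 9.51 CPM (-5.37, SE 1.09, and -6.45 without KK/HlJ). Mup copies are near identical, so single Mup values are uncertain. Of 13 female-biased genes, 4 were higher and 1 was lower, against 22% and 18.3% of all genes tested. Of these 4, 2 would fail the filter in the low strains alone.

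**Figure D3:**
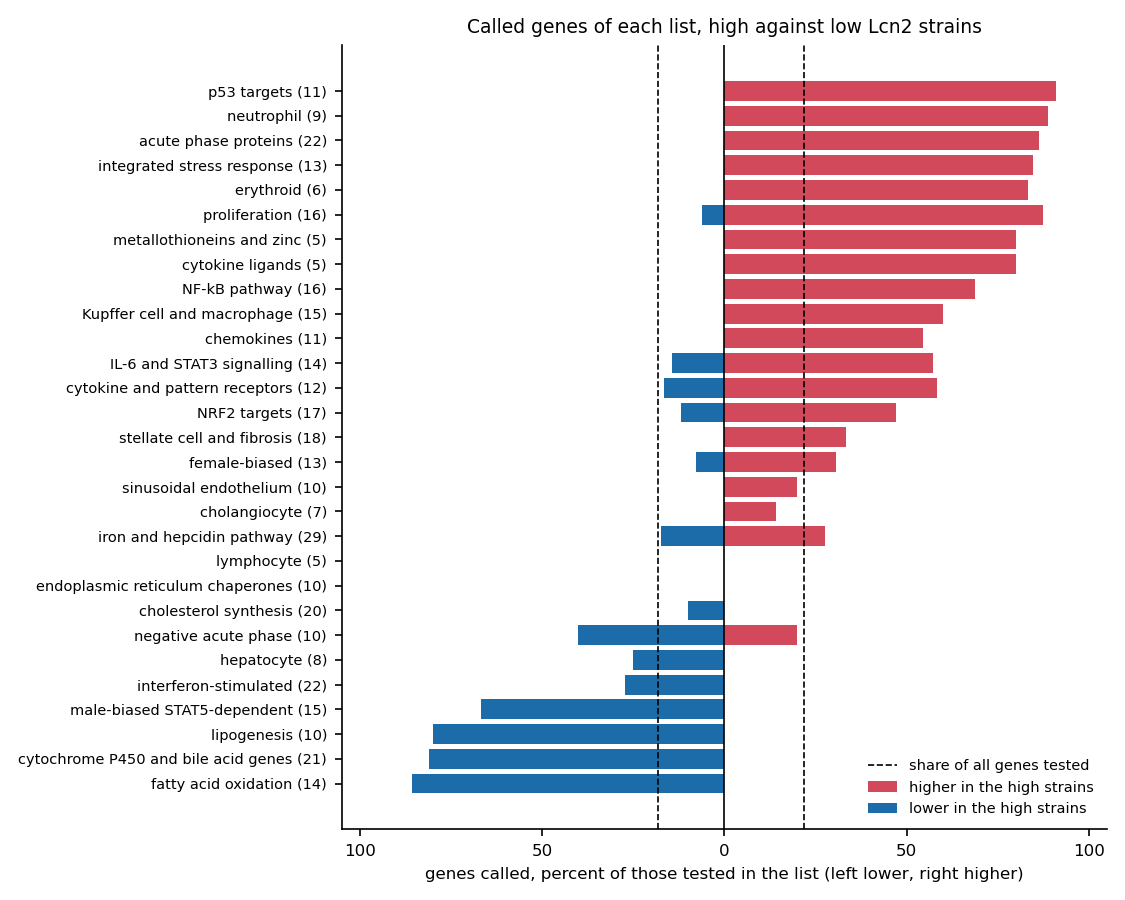
Share of the tested genes of each list that were higher or lower in the high-Lcn2 strains (percent), beside the share over all genes tested (22% higher and 18.3% lower). Acute phase genes were higher in 19 of 22, and P450 and bile acid genes were lower in 17 of 21.

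Of 13 genes of the integrated stress response, the gene programme run by ATF4, 11 were higher, 4 of which (Atf3, Asns, Psat1 and Mthfd2) would fail the filter in the low strains alone. Psat1 (serine synthesis) had medians of 5.49 and 0.935 CPM (2.56, SE 0.38, adjusted p 4.973e-06) and Asns (asparagine synthesis) of 8.60 and 1.37 CPM (2.68, SE 0.47, adjusted p 3.723e-05). Of 10 endoplasmic reticulum chaperone genes, 0 were called. Of 11 p53 target genes, 10 were higher, 2 of which would fail the filter in the low strains alone. Btg2, an anti-proliferative gene, had medians of 60.6 and 11.3 CPM (2.34, SE 0.33, adjusted p 2.401e-06), and Cdkn1a, the cell-cycle inhibitor p21, changed by 2.33 (SE 0.55), and by 3.58 without BXH8/TyJ. Of 16 proliferation genes, 14 were higher and 1 was lower, and 8 of the 14 would fail the filter in the low strains alone. Mki67, the proliferation antigen, had medians of 13.9 and 3.99 CPM (2.72, SE 0.45, adjusted p 2.051e-05), while Ccnd1, the cyclin of cell-cycle entry, was lower at 71.2 against 214.2 CPM (-1.27, SE 0.32, adjusted p 0.0017). Of 17 NRF2 targets, 8 were higher and 2 were lower, against 22% and 18.3% of all genes tested. Of these 8, 1 (Gsta1) would fail the filter in the low strains alone.

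Of 22 interferon-stimulated genes, 0 were higher and 6 were lower, with a median of -0.34, against 22% and 18.3% of all genes tested. Without BXH2/TyJ, 1 was higher and 4 were lower. With strain family as a term, 0 were higher and 8 were lower. In BXD strains alone 0 were called, near the 1.17% of all genes tested there. Gbp3, an interferon-induced GTPase gene, had medians of 10.1 and 17.6 CPM (-0.82, SE 0.27, adjusted p 0.0133, and 0.0788 with 10 strains at each end). Ceacam2, a cell adhesion gene, rested on 3 strains, I/LnJ at 124 CPM, LG/J at 118.3 CPM and SJL/J at 67.0 CPM, beside medians of 0.952 and 0.754 CPM (4.40, and 3.79 without I/LnJ), and was not called with DESeq2 (0.44, adjusted p 0.279) or limma (0.99, adjusted p 0.0546). The 1 gene (0.00758%) that was lower without overlap was Vars2, the mitochondrial valine tRNA ligase gene, at 8.98 to 14.3 CPM in the high group and 14.97 to 23.2 CPM in the low group (-0.51, SE 0.06, adjusted p 2.196e-07).

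The high-Lcn2 strains were not alike. For each list, the genes called in its direction were counted that lay beyond all 20 low strains in a given strain. Of the 19 acute phase genes, all 19 did in BXD48/RwwJ and in BXD27/TyJ, 18 in NON/ShiLtJ and BXD36/TyJ, 8 in BTBR T<+> tf/J and 5 in KK/HlJ. Of the 8 neutrophil genes, 6 would fail the filter on low counts in the low strains alone, so their counts here support nothing about the list. All 8 lay beyond the low strains in BTBR T<+> tf/J, NON/ShiLtJ, BXD24/TyJ-Cep290<rd16>/J, BXD42/TyJ, LG/J and SJL/J, and 1 did in BXD28/TyJ and AXB5/PgnJ. These last 2 strains still had 14 and 16 of the acute phase genes beyond the low group. Of the 17 P450 and bile acid genes, 0 did in BXD48/RwwJ, I/LnJ and BXD28/TyJ, and 14 in NZB/BlNJ, 12 in BTBR T<+> tf/J and BXH2/TyJ, and 11 in KK/HlJ. The strain with the highest Lcn2 thus had every acute phase gene and 0 P450 genes outside the range of the low strains. NZB/BlNJ had all 12 fatty acid oxidation genes and 11 of 19 acute phase genes outside it. These counts describe genes that the group comparison chose, and carry no test. The share of all called genes beyond the low strains was not counted for each strain. A trait of a list and a strain far out for most genes thus cannot be told apart.

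**Figure D4:**
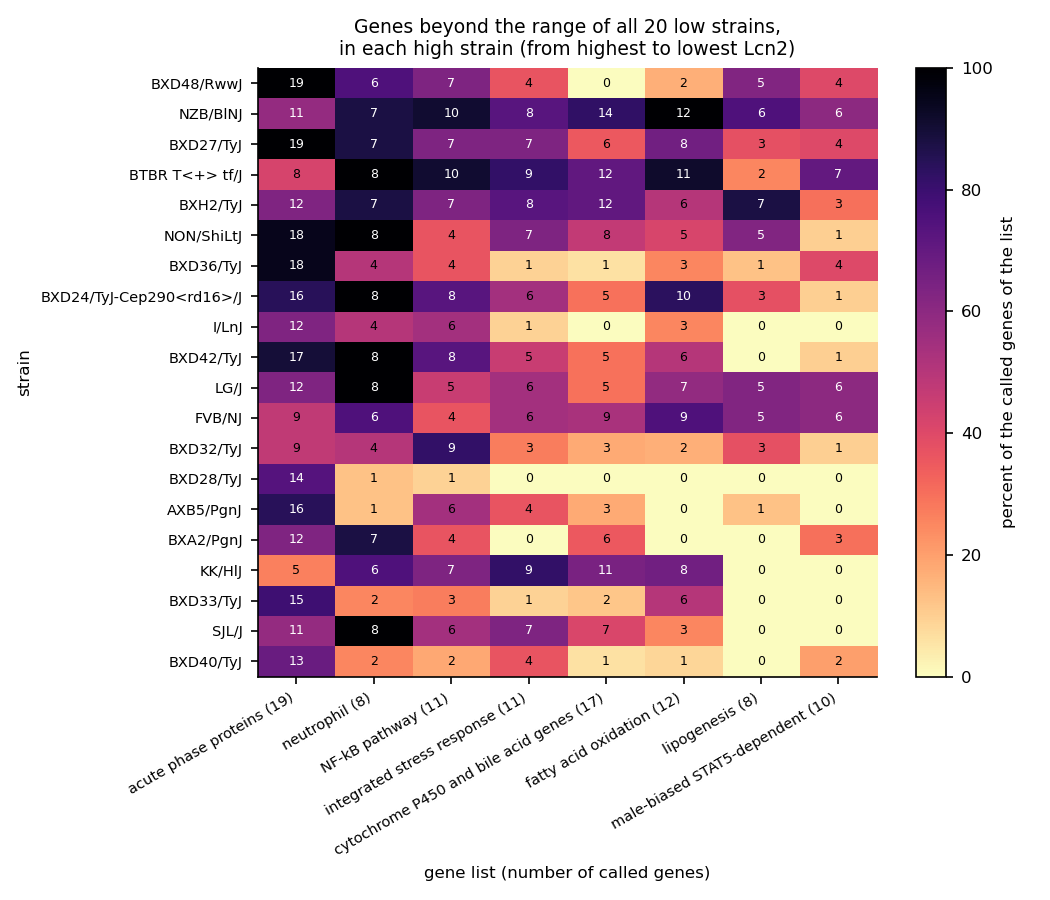
Share of each list's called genes (percent) that lay beyond all 20 low strains, for each of the 20 high strains in order of Lcn2. BXD48/RwwJ has 19 of 19 acute phase genes and 0 of 17 P450 genes outside, while BTBR T<+> tf/J has 8 and 12.

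The 73 strains between the groups entered neither, so the relation of each gene to Lcn2 was tested again in them, as the slope of its log2 level per doubling of Lcn2. Of 14005 genes tested, 377 (2.69%) had a slope at an adjusted p under 0.05, 208 (1.49%) positive and 169 (1.21%) negative, and the median Lcn2 of 78.4 TPM was far below that of the high group. With limma on log2(TPM + 1), 264 genes were called, 97% of them positive, against 55.2%. Of the genes with a positive slope that were tested in both, 190 (94.06%) were also higher in the high group, which is 6.545% of the genes higher there, and of 164 with a negative slope, 86.59% were also lower. Of all 13201 genes tested in both, 22% were higher in the high group and 18.3% were lower. Acute phase genes had a positive slope in 18 of 22. The 10 genes with the smallest p-values were Prtn3, Hp, Itih3, Lrg1, Orm2, Hpx, Fgl1, Cp, Saa1 and Serpina3n. The slope of Prtn3 was 1.42 (SE 0.14, adjusted p 1.702e-11), and it had a median of 7.58 CPM in the 18 strains of this set with the most Lcn2 and 0.275 CPM in the 18 with the least. Hp had a slope of 0.29 (SE 0.03, adjusted p 7.01e-10) and medians of 3645 and 2089 CPM in the same strains. Lrg1, which encodes an acute phase glycoprotein also held in neutrophil granules, had a slope of 0.36 (SE 0.05, adjusted p 7.017e-08), and medians of 975.5 and 353.4 CPM in the high and low groups.

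Other lists that differed between the groups gave few or 0 calls in these strains. Of the 21 P450 and bile acid genes, the 16 NF-kB genes, the 14 fatty acid oxidation genes and the 15 male-biased genes, 0 had a slope that was called. The same held for the 11 p53 targets, the 10 lipogenic genes and the 6 erythroid markers. A positive slope was called for 1 of 14 integrated stress response genes and 1 of 16 proliferation genes. Over all genes tested in these strains, 1.49% had a positive and 1.21% a negative slope that was called. Counts of 0 or 1 in lists this short are near those shares and are no result about a list. Neutrophil markers had a positive slope in 8 of 10 tested. A call missed here does not show that the slope differs from the change between the groups, since that difference was not tested.

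**Figure D5:**
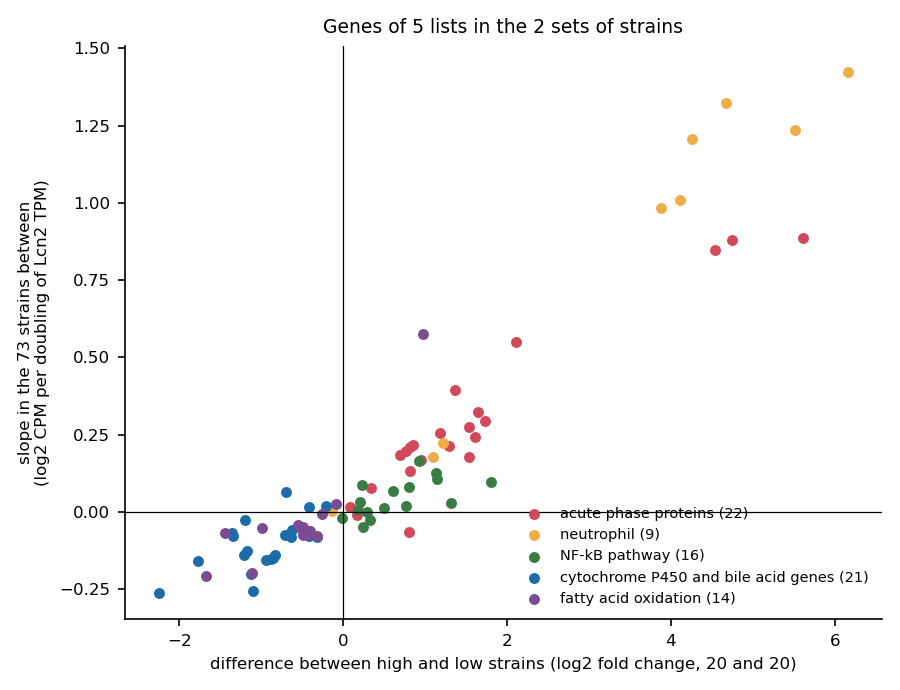
Slope on Lcn2 in the 73 strains between the groups (log2 per doubling of Lcn2) against the log2 change between the high and low groups, for the genes of 5 lists. Prtn3, at 1.42 and 6.16, lies at the upper right, and all P450 and bile acid genes lie to the left of 0 with none of their slopes called. Over all genes tested in these strains, 2.69% of slopes were called.

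In the diet series, 2% iron was set against a 50 ppm iron diet in C57BL/6J, mice that are in neither group, and 2108 of 13560 genes (15.5%) were called, 8.41% higher and 7.13% lower. Of 1115 genes higher on 2% iron and tested in both, 635 (56.95%) were also higher in the high-Lcn2 strains, and of 925 lower, 605 (65.41%) were also lower. Of all 12903 genes tested in both, 2847 were higher in the high-Lcn2 strains and 2406 were lower. Of the 22 acute phase genes, 4 were higher and 3 were lower on 2% iron. Saa1 was lower on 2% iron, at a mean of 15.5 CPM (SD 4.44, n = 3) against 81.7 CPM (SD 35.96, n = 3) on 50 ppm (-2.40, SE 0.68, edgeR adjusted p 0.03725). Hp was 2313 CPM (SD 570.8, n = 3) against 2144 CPM (SD 277.1, n = 3), with an edgeR adjusted p of 0.789. Interferon-stimulated genes were higher on 2% iron in 16 of 22 and macrophage markers in 12 of 15. The count of all calls was 1371 without replicate 1 and 1238 without replicate 3 of the 2% iron group, and 981 without replicate 1 of the 50 ppm group.

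Among the 15 BXD strains of the 2 groups alone, 157 of 13421 genes (1.17%) were called, 94 (0.7%) higher and 63 (0.469%) lower. Acute phase genes were higher in 13 of 22, neutrophil markers in 5 of 9, and male-biased genes lower in 6 of 15, while 0 of 21 P450 and bile acid genes and 0 of 14 fatty acid oxidation genes were called. Calls were also 0 among 13 integrated stress response genes, 10 p53 targets, 14 proliferation genes and 10 lipogenic genes. Counts of 0 in lists this short are near the shares of all genes called in these strains, 0.7% higher and 0.469% lower. They are thus no result about a list. Erythroid markers were higher in 1 of 6. The 5 neutrophil markers, S100a8, S100a9, Ngp, Ltf and Prtn3, are among those that would fail the filter in the low strains alone. Of the 10 male-biased genes lower with all strains, 8 would fail it in the high strains alone. Such calls support nothing about their lists. In the 25 other strains, 4943 of 13071 genes (37.8%) were called, 20.6% higher and 17.2% lower, and 17 of 22 acute phase genes were higher and 15 of 21 P450 and bile acid genes were lower. A test of whether the change differs between BXD and other strains, chosen after seeing the data, called 0 of 14377 genes with edgeR, and 1747 had an unadjusted p under 0.05.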

How the data were processed

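Liver mRNA of 115 panel mice and 15 diet-series mice was sequenced with a stranded kit, and the 2 sets of tables were processed separately. The submitters' processing notes name kallisto 0.46 and the build mm10. The deposited tables hold estimated counts per gene (not all whole) and TPM values, which the authors made from the reads. The estimated counts, planned for as whole counts, were rounded to whole numbers here. The 40 libraries compared held 9864422 to 15419215 counts.

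Strains were ranked by Lcn2 TPM and the 20 at each end compared with edgeR 4.0.16 in R 4.3.3: TMM factors, the filterByExpr filter, the robust quasi-likelihood test, Benjamini-Hochberg adjustment over all genes tested and a threshold of 0.05. The SE is the log2 change divided by the square root of F. CPM values use TMM library sizes of the 40 libraries; summed lists, genes too low to be tested and the strains between use those of all ranked strains. The slope in the 73 strains between was taken on log2(Lcn2 TPM + 0.1), and the 5 diet groups were fitted together. Alternatives used limma 3.58.1 and DESeq2 1.42.0. Permutation tests drew 100000 resamples. The fit was tested on simulated data. Tables and figures used Python 3.11.15, pandas 2.3.3, numpy 2.4.6 and matplotlib 3.10.9. Named genes are the members of the gene lists, the genes of largest change or smallest p-value and those whose groups did not overlap; Ceacam2, Vars2, the neighbours of Lcn2 in the closing section and the examples within each list were picked after their values were seen. Members and lists were chosen with earlier results of these data known. Labels name no batch or date, and no test for one was made. A result on 1 gene is not reported here.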

Additional observations from a re-analysis of the deposited data

How the results depend on the processing

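With 15 BXD strains alone, 157 genes were called between the high and low groups (94 higher, 63 lower), against 5322, with fewer strains in the fit. With the slope taken over all strains, the 2 groups included, 6809 genes were called, against 377 in the 73 strains between. Leaving out each library in turn gave 4881 to 5674 calls between the groups, and 981 to 1618 calls for 2% iron against 50 ppm, against 2108. The count between the groups was 5334 with RLE factors, 5734 without a filter, 5275 with at least 10 counts in 20 libraries, 5559 with DESeq2, 4866 with strain family as a term, 4943 in strains other than BXD, 5433 with library total as a term, 4271 with 10 strains at each end, 5692 with 30 and 5238 when ranked by Lcn2 CPM. Without BXH2/TyJ it was 4997. Of 114 named genes, not all of them called with all strains, 67 kept their sign and lost their call in the 15 BXD strains alone. Ceacam2 and Ccl24 also lost their calls there, with the sign turned. Outside that setting, calls were lost for Cyp7a1 (30 strains at each end, adjusted p 0.0666), Il1b (10 and 30 strains, 0.124 and 0.111), Gbp3 (10 strains, 0.0788), Itih4 (10 strains, 0.0515, and strains other than BXD, 0.0924), Ceacam2 (DESeq2, 0.279, and limma, 0.0546), Cxcl1 (limma, 0.0689, family term, 0.0574, strains other than BXD, 0.0582, without BXD48/RwwJ, 0.089, and without NON/ShiLtJ, 0.0604), Slc39a8 (limma, 0.167, family term, 0.0528, and strains other than BXD, 0.0731) and Ccl24 (without BTBR T<+> tf/J, 0.0636). By adjusted p, calls were gained in strains other than BXD for Hamp (0.00875), Nr1h4 (0.005) and Timd4 (0.0326), and for Col3a1 with limma (0.0461). Leaving out 1 library gave a call to Hamp without BXD40/TyJ, BXD42/TyJ or BXD48a/RwwJ (0.032 to 0.0455), to Nr1h4 without BXD28/TyJ (0.0442), to Timd4 without BXD48a/RwwJ (0.0397) or BXH2/TyJ (0.0416), to Col3a1 without KK/HlJ (0.0201), and to Il1rn without any 1 of 5 libraries (0.0345 to 0.0474). The sign of some changes that were small or not called turned. In BXD strains alone Hamp was 0.17, Alb 0.10, Nr1h4 0.090, Timd4 -0.067, Clec4f -0.20 and, both called with all strains, Ceacam2 -0.33 and Ccl24 -0.34. In strains other than BXD, Saa4 was -0.38, Crp -0.061 and Col1a1 0.29. With limma on log2(TPM + 1), Saa4 was -0.17, Slc22a17 0.027 and Col1a1 0.078. With 10 strains at each end, Alb was 0.023 and Crp -0.17. Leaving out BXD48/RwwJ gave -0.093 for Saa4, and leaving out each library in turn gave -0.093 to 0.24. The cause was not tested. No paired analysis was possible because the labels give the strains no replicate numbers that pair them.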

Other observations

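Genes near Lcn2 on chromosome 2 (32384633 to 32388252, mm10) were compared between the groups. Of 36 tested genes within 1 Mb, 10 were higher and 3 were lower in the high-Lcn2 strains (36.1% called, against 40.3% of all genes), and 0 had a slope on Lcn2 that was called in the 73 strains between. Of these neighbours, St6galnac4, a sialyltransferase gene 198.8 kb away, had medians of 6.00 and 1.76 CPM (log2 change 2.04, SE 0.31, adjusted p 6.056e-06). The adjacent gene 1110008P14Rik changed by 0.40 (SE 0.10, adjusted p 0.001893).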
